A study of Mus musculus with 12 samples.

Results

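Genes of lysosomal calcium release and nutrient sensing were followed in mouse kidneys with and without polycystic disease. They were picked by name from the deposited count table: the mucolipin channels Mcoln1, Mcoln2 and Mcoln3, the two-pore channels Tpcn1 and Tpcn2, the MiT/TFE transcription factors Tfeb, Tfe3 and Mitf, and the folliculin regulators Flcn and Fnip1. These are 10 of the 54532 genes listed, and all 10 passed the cutoff on low counts, as did 24642 genes in all. The list was drawn up with earlier results of these data known, so the values and p-values of its members are descriptions and carry no support of their own.

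Whole kidneys of 12 C57BL/6 mice (C57BL/6 J in the study's methods) aged 18 days were sequenced, 3 mice in each of 4 groups. Noncystic mice, labelled control, carried the hypomorphic RC missense allele of Pkd1 over a floxed allele without Cre (Pkd1 RC/+). Cystic mice carried the same alleles with Ksp-Cre, which deletes the floxed Pkd1 in tubule epithelium (Pkd1 RC/-), so they differed from noncystic mice also by the Cre transgene, and cells in which Ksp-Cre is silent kept the floxed allele. Each kind had either unedited Pkd2 (Pkd2 +/+) or Pkd2 without its miR-17 motif on both alleles (Pkd2 Δ17/Δ17), a deletion made in the germ line by CRISPR/Cas9 and so present in every cell. All 4 groups shared the RC allele, and no mouse was wild type for Pkd1. The labels give no sex. Mice keep their label numbers, 19 to 21 for noncystic Pkd2 +/+, 22 to 24 for noncystic Pkd2 Δ17/Δ17, 25 to 27 for cystic Pkd2 +/+ and 28 to 30 for cystic Pkd2 Δ17/Δ17, and values of single mice are given in that order. By reads of the sex-linked genes Xist and Ddx3y, mice 19, 22, 23, 25, 26 and 28 looked female and the others male. The former had 7903 to 20947 Xist and 8 to 26 Ddx3y reads, the latter 96 to 161 and 1130 to 1374. Sex was thus not balanced between the compared groups, and an alternative fit had Xist as a covariate.

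Mucolipins are cation channels of endosomes and lysosomes that open on the phosphoinositide PI(3,5)P2, and Mcoln1 is the member mutated in mucolipidosis type IV. Two-pore channels of the same membranes respond to PI(3,5)P2 and, through accessory proteins, to NAADP. Calcium leaving the lysosome through Mcoln1 activates calcineurin, which frees TFEB to enter the nucleus and switch on lysosomal and autophagy genes, whereas folliculin with its partner FNIP1 activates the Rag GTPases that let mTORC1 hold TFEB and TFE3 in the cytoplasm. Loss of folliculin in kidney tubules leads to cysts in mice and in Birt-Hogg-Dubé syndrome.

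The miR-17 motif of Pkd2, with flanking bases, and the E-boxes near the starts of the members are shown because they are the places where miR-17 and MiT/TFE factors would pair or bind. In the first, capitals mark the seed (bases 2 to 8); in the second they mark the 7 bases of the Pkd2 3′-UTR that pair with the seed and the A that follows them, opposite base 1 of the miRNA. The window lies at chr5:104503810-104503839 (GRCm38, plus strand, exon 15 of 15).
mmu-miR-17-5p: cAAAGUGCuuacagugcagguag
Pkd2 3′-UTR site: tataattttctGCACTTTAatttattttac
No annotated 3′-UTR of the 10 members held GCACTTT, the match to the seed. Of the 21148 genes with an annotated 3′-UTR, 12.181% held it in their longest one. So the edited motif had no counterpart of those letters in the members. The consensus E-box CACGTG, which reads the same on both strands, was searched in the RefSeq promoter windows around gene starts (GRCm38.p6), such as chr8:3500269-3500568 for Mcoln1. It lay in 7.15% of the 32851 windows of all genes and in those of Mcoln1, Mcoln2 and Fnip1. Capitals mark it here, on the strand of the gene.
Mcoln1, chr8:3500436-3500465: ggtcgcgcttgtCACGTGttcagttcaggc
Mcoln1, chr8:3500462-3500491: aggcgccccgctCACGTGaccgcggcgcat
Mcoln2, chr3:146150090-146150119: tccctgagctcaCACGTGgaccccattctg
Fnip1, chr11:54438092-54438121: tcagtttgctgcCACGTGatacggctcgtc
The E-boxes began at positions -71 and -45 of Mcoln1, -72 of Mcoln2 and -75 of Fnip1, counted from the RefSeq start around which each window was built, which can differ from the first base of the GENCODE gene. The second of Mcoln1 was also the palindrome TCACGTGA, held by 0.974% of windows. The windows of Mcoln3, Tpcn2, Tfeb, Tfe3, Mitf and Flcn held no CACGTG, and Tpcn1 had no window in the table. The variant TCATGTGA, on either strand, was in 0.986% of windows and in none of the members'.

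Libraries held 18800307 to 24453033 counts, and every pair of mice within a group differed beyond counting noise (chi-square per degree of freedom 8.88 to 24.3). The Pkd2 count followed the Pkd2 labels: it rose with the deletion in cystic kidneys by 0.53 ± 0.08 (log2, SE; adjusted p = 0.00250, edgeR quasi-likelihood test, Benjamini-Hochberg adjusted over all genes). In noncystic kidneys the difference was 0.40 ± 0.08 (log2, SE), with an adjusted p of 0.771 by the same test. There Pkd2 stood at 217, 194 and 219 CPM without the deletion and 277, 286 and 270 with it, without overlap. The interaction for Pkd2 was 0.13 ± 0.11 (log2, SE), so a smaller rise in noncystic kidneys was not shown. The Pkd1 count was not lower in cystic kidneys, so it did not show the cystic label. Its log2 difference from noncystic kidneys was 0.26 ± 0.11 (SE; adjusted p = 0.0776, same test) with Pkd2 +/+. With Pkd2 Δ17/Δ17 it was 0.07 ± 0.11 (SE; adjusted p = 0.708, same test). Kidney markers were abundant, as the tissue label says: the 8 proximal tubule markers summed to 2781 to 9414 CPM (counts scaled by library size and TMM factor) in the 12 mice. Adrenal gland markers stood apart in cystic mice 27 and 30, at 37.4 and 265.8 CPM in sum against 3.63 to 6.66 in the other 10, so member calls that change without these 2 mice are given both ways. Calls of pathway list and marker genes were not examined without these 2 mice. The p-values measure the spread between mice of a group, and in whole tissue fewer cells of a type and less RNA per cell cannot be told apart.

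Cystic Pkd2 +/+ kidneys were compared with noncystic Pkd2 +/+ kidneys to see what cyst formation did to these genes. Mcoln3 rose 7.06-fold and stood far from the other members, which lay between 0.677 and 1.36 times the noncystic level. Tfe3 and Tpcn2 rose and Tpcn1, Flcn and Fnip1 fell, while Mcoln1, Mcoln2, Tfeb and Mitf did not pass the test. Thus 6 of 10 members were called (adjusted p under 0.05, edgeR quasi-likelihood test, Benjamini-Hochberg adjusted), 3 of them higher and 3 lower. Of all genes tested 31.1% were called, 16.9% higher and 14.2% lower. All members are expressed well above the cutoff, and among the 13691 genes with a mean log2CPM of at least 1 the share was 48.7%. The groups did not overlap for 6 members, 2 higher and 4 lower, against 41.7% of all genes, a share not worked out for the more highly expressed genes alone. The median log2 fold change was -0.18 over the members and 0.02 over all genes.

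**Figure D1:**
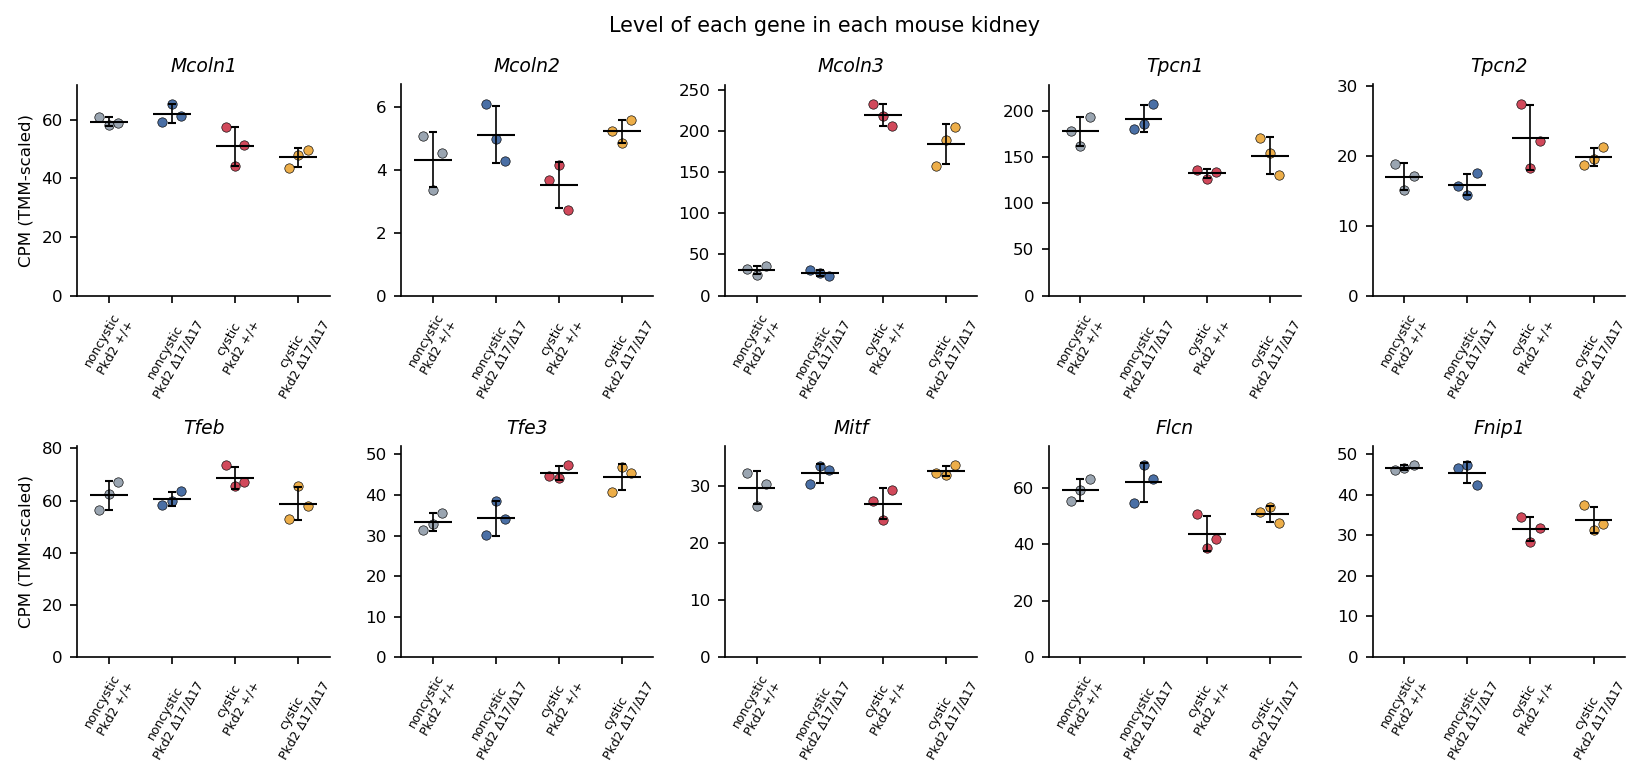
CPM (TMM-scaled, vertical axes from 0) of each of the 10 genes in each mouse, by group; points are mice, horizontal bars the group means and vertical bars 1 SD. The cystic kidneys sit between 158 and 234 CPM for Mcoln3, above the noncystic range of 23.2 to 35.5, while in the other panels the groups lie close together or overlap.

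The mucolipins parted in this comparison. Mcoln3, a channel best known from the varitint-waddler mouse and sensory hair cells, stood at 32.5, 25.2 and 35.5 CPM in the noncystic Pkd2 +/+ kidneys and at 234, 218 and 207 CPM in the cystic ones. Every cystic kidney was above every noncystic kidney. On the log2 scale the difference was 2.82 ± 0.13 (SE; 95% interval 2.54 to 3.10; adjusted p = 1.92e-09, edgeR quasi-likelihood test, Benjamini-Hochberg adjusted), the third smallest p among all genes tested and the 36th highest fold change among the 13691 genes with a mean log2CPM of at least 1. With Pkd2 Δ17/Δ17, noncystic kidneys held 30.9, 27.2 and 23.2 CPM and cystic kidneys 158, 189 and 205, again without overlap. That difference was 2.76 ± 0.13 (log2, SE), or 6.79-fold, with an adjusted p of 5.31e-09 by the edgeR quasi-likelihood test, Benjamini-Hochberg adjusted. The 2 comparisons share no mice.

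Mcoln1, the broadly expressed lysosomal calcium channel, was called lower in the Pkd2 Δ17/Δ17 kidneys and not in the Pkd2 +/+ ones, and whether these differ was tested by the interaction, which did not call it. Its noncystic Pkd2 +/+ kidneys held 61.1, 58.4 and 58.9 CPM and its cystic ones 57.4, 44.2 and 51.3, so that each cystic kidney was below each noncystic one. The log2 difference was -0.22 ± 0.09 (SE) with an adjusted p of 0.0830 by the edgeR quasi-likelihood test, Benjamini-Hochberg adjusted, which was 0.0158 without mouse 25 and 0.688 with scaling to library totals. That adjusted p was also under 0.05 with the DESeq2 Wald test (0.0367), with DESeq2 size factors in edgeR (0.0457) and with at least 10 reads in every mouse (0.0472). In Pkd2 Δ17/Δ17 kidneys Mcoln1 fell from 59.3, 65.6 and 61.4 CPM to 43.6, 48.2 and 49.9, a log2 difference of -0.39 ± 0.09 (SE; adjusted p = 0.00442, edgeR quasi-likelihood test, Benjamini-Hochberg adjusted), which library totals reduced to -0.24 (adjusted p = 0.0774).

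Mcoln2, the neighbour of Mcoln3 on chromosome 3 and a channel mostly of immune cells, was the scarcest member. Mcoln3 (chr3:146117450-146141806) ends 8026 bases before Mcoln2 (chr3:146149833-146195513) on the same strand, and no exon of either overlaps another gene. Mcoln2 had 58 to 116 reads a mouse. It stood at 5.09, 3.36 and 4.53 CPM in noncystic and 3.68, 4.16 and 2.73 CPM in cystic Pkd2 +/+ kidneys, which overlap, with a log2 difference of -0.30 and a 95% interval from -0.76 to 0.16. In Pkd2 Δ17/Δ17 kidneys the difference was 0.03 (-0.42 to 0.47). Thus the large difference of Mcoln3 was not seen in the gene beside it, within these intervals.

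Per length of transcript, the order of the members differed between noncystic and cystic kidneys. In noncystic Pkd2 +/+ kidneys Tpcn1 was first at 37.7 ± 3.32 RPKM (SD, n = 3; RPKM being CPM per 1000 bases of the transcript with the longest coding sequence). Next came Mcoln1 at 28.8 ± 0.691 and Tfeb at 26.99 ± 2.35, which overlapped, and Flcn at 17.3 ± 1.12. Mcoln3 at 10.4 ± 1.76 and Tfe3 at 10.2 ± 0.668 overlapped as well, and below them were Fnip1 at 7.45 ± 0.104, then Mitf at 6.08 ± 0.602 and Tpcn2 at 5.70 ± 0.644, which overlapped, and Mcoln2 at 1.72 ± 0.349. In cystic Pkd2 +/+ kidneys Mcoln3 was first at 73.3 ± 4.52 RPKM, with no overlap with any other member. Tfeb at 29.97 ± 1.84, Tpcn1 at 28.03 ± 1.122 and Mcoln1 at 24.7 ± 3.21 followed, each overlapping the next. With the motif deleted Mcoln3 was again first in cystic kidneys, at 61.6 ± 8.03 RPKM, ahead of Tpcn1 at 32.1 ± 4.29. The order below the first gene depends on the length: over the union of exons Flcn was second in noncystic Pkd2 +/+ kidneys at 13.8 ± 0.887 RPKM, then came Tfeb, Mcoln3 and Mcoln1, whereas Tpcn1 stayed first there and Mcoln3 first in both cystic groups.

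Within the mucolipin family the share of Mcoln3 was larger in cystic kidneys with either length used. Over the transcript with the longest coding sequence, Mcoln3 made up 25.3% ± 2.99 (SD, n = 3) of the summed mucolipin RPKM in noncystic Pkd2 +/+ kidneys and 73.8% ± 1.88 in cystic ones. Mcoln1 went from 70.5% ± 3.44 to 24.8% ± 2.15. The sum itself was 38.0 to 42.4 RPKM in the noncystic kidneys and reached 107.4 in the highest cystic one. The shares depend on the length used: over the union of all annotated exons, which is 7555 bases for Mcoln1, the Mcoln3 share was 49.1% in noncystic and 89.0% in cystic Pkd2 +/+ kidneys. The Mcoln1 share was then 43.7% in noncystic Pkd2 +/+ kidneys, where the RPKM of Mcoln3 and Mcoln1 overlapped. Mcoln3 thus had the larger mean share in both Pkd2 +/+ groups, and there the leading gene changed only with the coding transcript. In noncystic Pkd2 Δ17/Δ17 kidneys Mcoln1 had 46.9% and Mcoln3 44.3% over the union of exons, again with overlapping RPKM. In cystic Pkd2 Δ17/Δ17 kidneys Mcoln3 had 87.1%, so there the gene with the larger mean share changed with that length too.

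**Figure D2:**
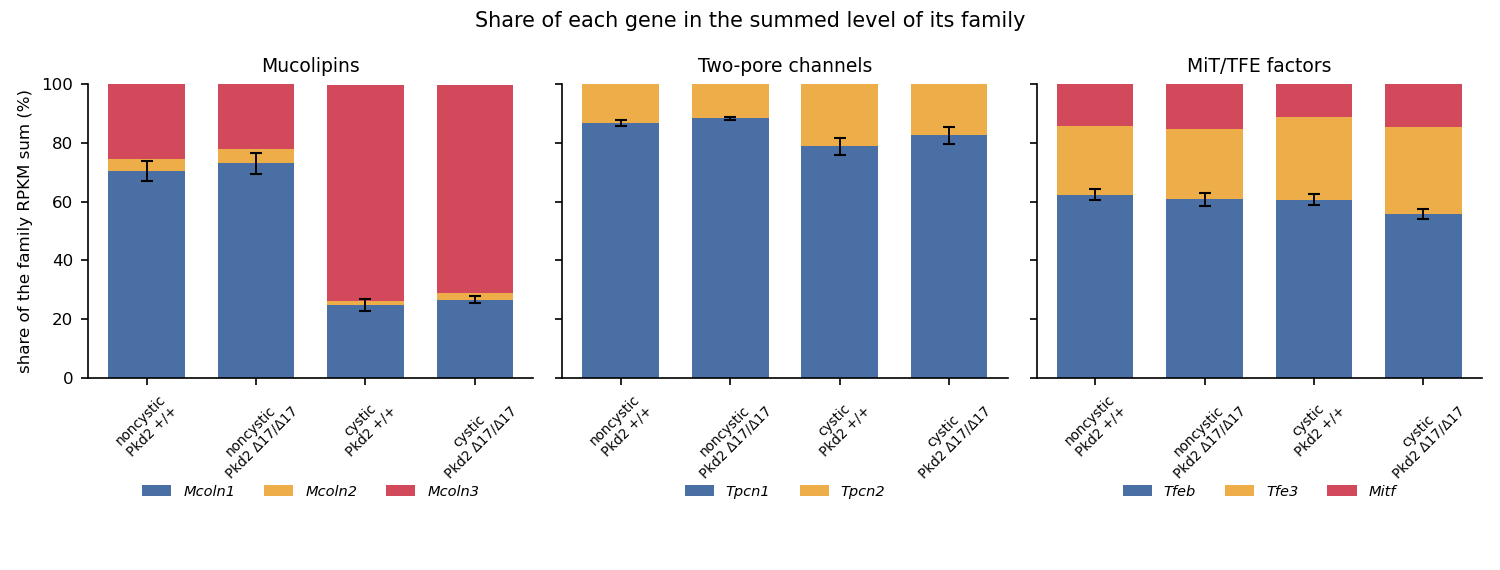
Mean share (%) of each gene in the summed RPKM of its family (coding-transcript length), by group (n = 3 mice); bars are stacked to 100%, and the error bars at the top of the lowest segment are 1 SD of that gene's share. Mcoln3 takes at most 25.3% of the mucolipin sum in noncystic groups and 71.1 to 73.8% in cystic groups, while Tpcn1 lies between 78.9 and 88.4% and Tfeb between 55.9 and 62.4% in all 4 groups.

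The two-pore channels differed in opposite directions. Tpcn1, the more abundant, fell from 178, 162 and 193 CPM in noncystic to 136, 126 and 134 CPM in cystic Pkd2 +/+ kidneys. No cystic kidney reached a noncystic one, and the log2 difference was -0.43 ± 0.10 (SE; adjusted p = 0.00269, edgeR quasi-likelihood test, Benjamini-Hochberg adjusted), or -0.27 with library totals (adjusted p = 0.0380). With Pkd2 Δ17/Δ17 it fell from 180.4, 186 and 208 CPM to 170.4, 154 and 130.2, without overlap. That difference of -0.34 (adjusted p = 0.0186, edgeR quasi-likelihood test, Benjamini-Hochberg adjusted) was not called without mouse 24 or mouse 30 (adjusted p = 0.0990 and 0.109) or without both mice high in adrenal markers (-0.24, adjusted p = 0.137), or with library totals (-0.19, adjusted p = 0.176).

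Tpcn2 stood at 18.9, 15.1 and 17.2 CPM in noncystic and 27.5, 18.3 and 22.2 CPM in cystic Pkd2 +/+ kidneys. Mouse 25 was highest and mouse 26 lay inside the noncystic range. The log2 difference was 0.41 ± 0.14 (SE; adjusted p = 0.0338, edgeR quasi-likelihood test, Benjamini-Hochberg adjusted). The call was lost without mouse 20, 21, 25 or 27, with adjusted p from 0.0630 to 0.208 and the log2 difference down to 0.25 without mouse 25, and it was also lost without the 2 mice high in adrenal markers (adjusted p = 0.0721) and with only the compared groups in the fit (adjusted p = 0.0716). For the Pkd2 Δ17/Δ17 kidneys the difference was 0.32 (adjusted p = 0.126, edgeR quasi-likelihood test, Benjamini-Hochberg adjusted), and library totals made it 0.47 (adjusted p = 0.0219). Tpcn1 made up 86.9% ± 1.07 (SD, n = 3) of the summed two-pore RPKM in noncystic and 78.9% ± 2.81 in cystic Pkd2 +/+ kidneys.

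Of Tfeb, Tfe3 and Mitf, only Tfe3 was called with TMM scaling. Tfe3, an X-linked factor that shares targets and control by mTORC1 with Tfeb, rose from 31.4, 32.8 and 35.7 CPM to 44.6, 44.3 and 47.4 in Pkd2 +/+ kidneys, without overlap. The log2 difference was 0.45 ± 0.10 (SE; adjusted p = 0.00169, edgeR quasi-likelihood test, Benjamini-Hochberg adjusted). Among Pkd2 Δ17/Δ17 mice it rose from 30.1, 38.6 and 34.1 CPM to 40.8, 46.9 and 45.3, again without overlap. There the log2 difference was 0.37 ± 0.10 (SE; adjusted p = 0.00935, edgeR quasi-likelihood test, Benjamini-Hochberg adjusted), or 0.28 without mouse 22 (adjusted p = 0.0650).

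Tfeb, a regulator of lysosomal and autophagy genes, stood at 56.3, 62.7 and 67.0 CPM in noncystic and 73.6, 65.6 and 67.2 CPM in cystic Pkd2 +/+ kidneys. The groups overlap and the log2 difference of 0.15 (95% interval -0.04 to 0.34) was not called (adjusted p = 0.235, edgeR quasi-likelihood test, Benjamini-Hochberg adjusted). Scaling to library totals gave 0.31 and a call (adjusted p = 0.0109). In Pkd2 Δ17/Δ17 kidneys the difference was -0.04 (-0.23 to 0.15), and it was 0.11 with library totals. The call of Tfe3 beside Tfeb does not show that they differ, since no test compared them. Tfeb still had 62.4% ± 1.91 (SD, n = 3) of the summed Tfeb, Tfe3 and Mitf RPKM in noncystic and 60.7% ± 1.83 in cystic Pkd2 +/+ kidneys, and Tfe3 had 23.5% ± 0.0578 and 28.1% ± 1.37.

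Mitf, the melanocyte and osteoclast factor of the family, stood at 32.2, 26.5 and 30.3 CPM in noncystic and 27.3, 23.99 and 29.2 CPM in cystic Pkd2 +/+ kidneys, which overlap. The log2 difference was -0.14 (95% interval -0.35 to 0.06; 0.01 with library totals). With Pkd2 Δ17/Δ17 it was 0.02 (-0.19 to 0.22). Melanocyte markers were nearly absent: 2 of 5 passed the cutoff, their sum was 0.712 to 1.76 CPM, Tyrp1 had no read in 12 mice and Tyr none in 11.

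Flcn and Fnip1, which encode folliculin and a partner that binds it, fell together in Pkd2 +/+ kidneys. Fnip1 went from 46.0, 46.6 and 47.3 CPM in noncystic to 34.4, 28.4 and 31.7 CPM in cystic kidneys. The cystic kidneys were all below the noncystic ones, and the log2 difference of -0.56 ± 0.09 (SE; 95% interval -0.76 to -0.37; adjusted p = 0.000145, edgeR quasi-likelihood test, Benjamini-Hochberg adjusted) was the lowest among the members. With the motif deleted Fnip1 fell from 46.6, 47.2 and 42.4 CPM to 37.4, 31.3 and 32.7, or by 0.43 on the log2 scale (adjusted p = 0.00252, edgeR quasi-likelihood test, Benjamini-Hochberg adjusted). Neither call was lost under any alternative tried, although library totals reduced the latter difference to -0.27 (adjusted p = 0.0385).

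Flcn fell from 55.6, 59.5 and 63.3 CPM to 50.7, 38.6 and 41.9 in Pkd2 +/+ kidneys. The groups did not overlap, and the log2 difference was -0.44 ± 0.11 (SE; adjusted p = 0.00371, edgeR quasi-likelihood test, Benjamini-Hochberg adjusted), or -0.28 with library totals (adjusted p = 0.0539). With Pkd2 Δ17/Δ17, Flcn stood at 54.6, 68.2 and 63.3 CPM in noncystic and 51.5, 53.3 and 47.7 CPM in cystic kidneys. That difference of -0.29 missed the threshold (adjusted p = 0.0594, edgeR quasi-likelihood test, Benjamini-Hochberg adjusted) and passed it without mouse 22 (-0.38, adjusted p = 0.0205), with DESeq2, with its size factors in edgeR, with either other low-count cutoff and with only the compared groups in the fit (adjusted p from 0.0200 to 0.0400).

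Over the Pkd2 Δ17/Δ17 kidneys 5 of 10 members were called between cystic and noncystic mice, Mcoln3 and Tfe3 higher and Mcoln1, Tpcn1 and Fnip1 lower. Of all genes tested, 23% were called, 12.8% higher and 10.2% lower. The groups did not overlap for 7 members, 3 higher and 4 lower, against 37.9% of all genes. Neither share was worked out for genes with a mean log2CPM of at least 1 alone. In Pkd2 +/+ kidneys the share called was 48.7% among such genes against 31.1% of all. So these counts do not show an excess among the members. Scaling matters for these counts: with library totals in place of TMM factors the median of all genes moved from 0.02 to 0.18 in Pkd2 +/+ and from -0.00 to 0.15 in Pkd2 Δ17/Δ17 kidneys. Calls over all genes then split into 6251 higher and 2468 lower, against 4170 and 3495 with TMM, in Pkd2 +/+ kidneys, and into 5334 and 1657, against 3164 and 2515, in Pkd2 Δ17/Δ17 kidneys.

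**Figure D3:**
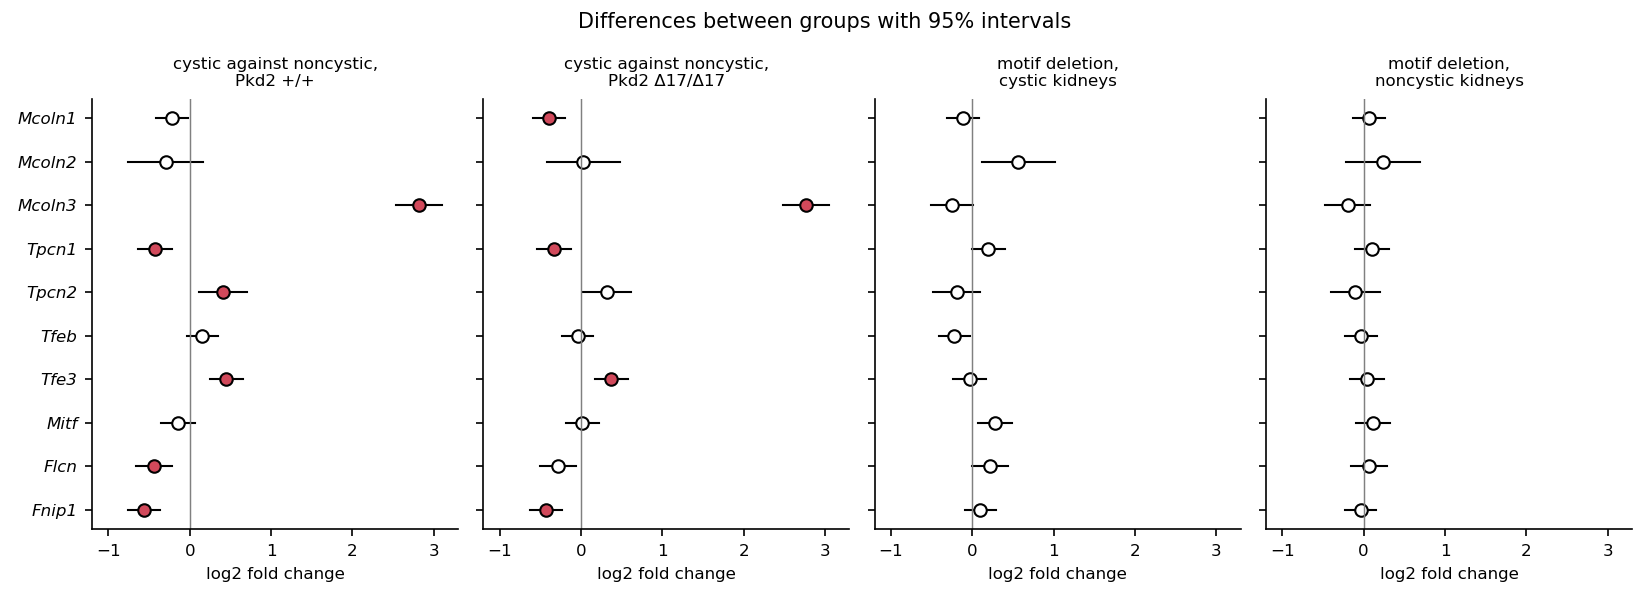
Log2 fold changes (horizontal axes) of the 10 genes in the 4 comparisons of groups; points are estimates, lines 95% intervals, and filled points have an adjusted p under 0.05. Mcoln3 lies at 2.82 and 2.76 in the comparisons of cystic with noncystic kidneys, and no point is filled for the motif deletion.

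The Pkd2 deletion was examined in cystic kidneys to see whether the members differed when Pkd2 lost its miR-17 motif. None of the 10 was called (adjusted p from 0.173 to 0.922, edgeR quasi-likelihood test, Benjamini-Hochberg adjusted), against 2.23% of all genes, and no alternative tried, limma-trend and DESeq2 included, called one. Unadjusted p-values were under 0.05 for 3 members, against 3532 of the 24642 genes tested. Mcoln2 was 5.24, 4.84 and 5.58 CPM with the deletion against 3.68, 4.16 and 2.73 without, a log2 difference of 0.57 (95% interval 0.11 to 1.02). Mitf was 32.2, 31.9 and 33.6 CPM against 27.3, 23.99 and 29.2, a difference of 0.28 (0.07 to 0.48). Tfeb was 53.1, 65.57 and 57.96 CPM against 73.6, 65.64 and 67.2, so that its groups all but touched, a difference of -0.23 (-0.42 to -0.03). These 3 pairs of groups did not overlap, nor did those of Mcoln3, and over all genes 19% of pairs did not. Without the 2 mice high in adrenal markers, Mcoln2 stood at 0.36 and the unadjusted p-values under 0.05 were those of Mcoln3, Tpcn1 and Mitf.

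For Mcoln3 the cystic kidneys with the deletion, at 158, 189 and 205 CPM, lay below those without, at 234, 218 and 207. The log2 difference was -0.25 ± 0.12 (SE; 95% interval -0.51 to 0.00) with an adjusted p of 0.355 by the edgeR quasi-likelihood test, Benjamini-Hochberg adjusted. Without the mice high in adrenal markers it was -0.38 (adjusted p = 0.293). Either way Mcoln3 in the cystic Pkd2 Δ17/Δ17 kidneys was several-fold above the noncystic level.

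In noncystic kidneys the deletion was compared in the same way. No member was called, none had an unadjusted p under 0.05 and no pair of groups failed to overlap. Differences ran from -0.20 to 0.24 on the log2 scale. The edgeR test called 0.00406% of all genes, which is 1 gene, and 10.8% did not overlap. The interaction, which asks whether the deletion acts differently in cystic and noncystic kidneys, called no member, against 0.0122% of all genes. At an unadjusted p under 0.05 there were 0 members, against 2053 of the 24642 genes tested. Differences of differences of the members ran from -0.19 to 0.33, with adjusted p from 0.748 to 0.967 by the edgeR quasi-likelihood test, Benjamini-Hochberg adjusted. For Mcoln3 the interaction was -0.06 with a 95% interval from -0.43 to 0.32. DESeq2 and limma-trend called no member in either comparison.

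Markers of cell types also differed between the groups. Of all genes, 31.1% were called between Pkd2 +/+ groups, 23% between Pkd2 Δ17/Δ17 groups and 2.23% between cystic groups. In Pkd2 +/+ kidneys all 12 macrophage markers rose with cystic disease, from 204 to 212 CPM in sum to 514 to 717, and all 8 proximal tubule markers fell, from 7306 to 9051 CPM to 2781 to 3929. Collecting duct principal cell markers rose in 3 of 6, from 1166 to 1338 CPM to 1935 to 3546, and those of cell cycle in 5 of 5, from 103 to 163 CPM to 354 to 379. The 4 tubule injury markers rose as well, from 16.3 to 23.3 CPM to 198 to 307. Fibroblast and mural markers rose in 3 of 6 and fell in 1, podocyte markers rose in 1 of 5 and fell in 4, endothelial markers fell in 3 of 5, and thick ascending limb and distal tubule markers rose in 1 of 6 and fell in 4. Intercalated cell markers rose in 1 of 6 and fell in 3, lymphocyte markers rose in 2 of 8 and fell in 1, fat markers fell in 4 of 4, and 0 of 4 adrenal markers passed the test. The fat markers summed to 185 to 470 CPM in noncystic and 38.5 to 88.9 CPM in cystic Pkd2 +/+ kidneys. With Pkd2 Δ17/Δ17 their sums were 148 to 233 CPM in noncystic and 2.40 to 136 CPM in cystic kidneys. Between Pkd2 Δ17/Δ17 groups the calls included 12 of 12 macrophage, 3 of 6 principal cell, 5 of 5 cell cycle, 4 of 6 fibroblast and mural and 1 of 4 injury markers higher, and 8 of 8 proximal tubule markers lower. Also lower were 4 of 5 podocyte, 3 of 5 endothelial, 3 of 6 intercalated cell, 1 of 8 lymphocyte and 2 of 4 fat markers. Of 6 thick ascending limb and distal tubule markers, 1 was higher and 3 were lower. All 4 adrenal markers rose there, with mouse 30 in the cystic group. Between the cystic groups macrophage markers were lower with the deletion in 6 of 12 (358 to 498 CPM in sum) and proximal tubule markers higher in 3 of 8 (3667 to 5023 CPM), and 2 of 4 injury markers were lower. Also higher with the deletion were 1 of 6 thick ascending limb and distal tubule and 1 of 5 endothelial markers. The part of these cell types in the member values was not tested.

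The genes around the members in the pathway were counted by list. Between Pkd2 +/+ groups 31.1% of all genes were called, and 48.7% of those with a mean log2CPM of at least 1. Of all genes, 23% were called between Pkd2 Δ17/Δ17 groups and 2.23% between cystic groups. List counts near these shares are not results about a list. Tfec and Fnip2, the remaining MiT/TFE factor and the paralogue of Fnip1, both fell in cystic Pkd2 +/+ kidneys, with log2 differences of -0.97 and -0.71 (adjusted p = 3.00e-05 and 0.000529, edgeR quasi-likelihood test, Benjamini-Hochberg adjusted). Of 20 Rag, Ragulator and mTORC1 genes 1 rose and 4 fell (median -0.09), and with library totals 4 rose and 4 fell. The one that rose was Rragd, a Rag GTPase gene known as a target of TFEB and TFE3, by 0.61 (adjusted p = 1.17e-05). It was lower with the deletion in cystic kidneys by 0.43 (adjusted p = 0.00902, edgeR quasi-likelihood test, Benjamini-Hochberg adjusted). The Ragulator genes Lamtor4 and Lamtor5 fell by 0.75 and 0.62, and the others that fell, Lamtor2 and Nprl2, were named after their values were seen.

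Lysosomal genes fell more often than they rose with TMM scaling. Of all genes 16.9% rose and 14.2% fell with TMM scaling, and 6251 rose and 2468 fell with library totals. Of 36 hydrolase genes 5 rose and 19 fell (median -0.27; 9 and 9 with library totals). Ctsd and Ctsc, cathepsins D and C, rose by 1.09 and 0.99, and Ctsf and Galc fell by 0.80 and 0.67. Of 16 V-ATPase genes, subunits of the pump that acidifies lysosomes and also urine, 1 rose and 13 fell (median -0.39; 2 and 8 with library totals), with Atp6v1e1 at -0.67 and Atp6v0a1 at 0.30. Of 16 lysosomal membrane genes 1 rose, Scarb2 at 0.50, and 6 fell, among them Cd63 at -0.66 and Lamp2 at -0.56 (2 and 4 with library totals). Of 22 autophagy genes 0 rose and 7 fell, Gabarapl1 the most at -1.08 (3 and 2 with library totals). Ctsd and Gabarapl1 share 34.4% and 28.3% of their exon bases with another annotated gene, so their counts are uncertain to that extent.

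**Figure D4:**
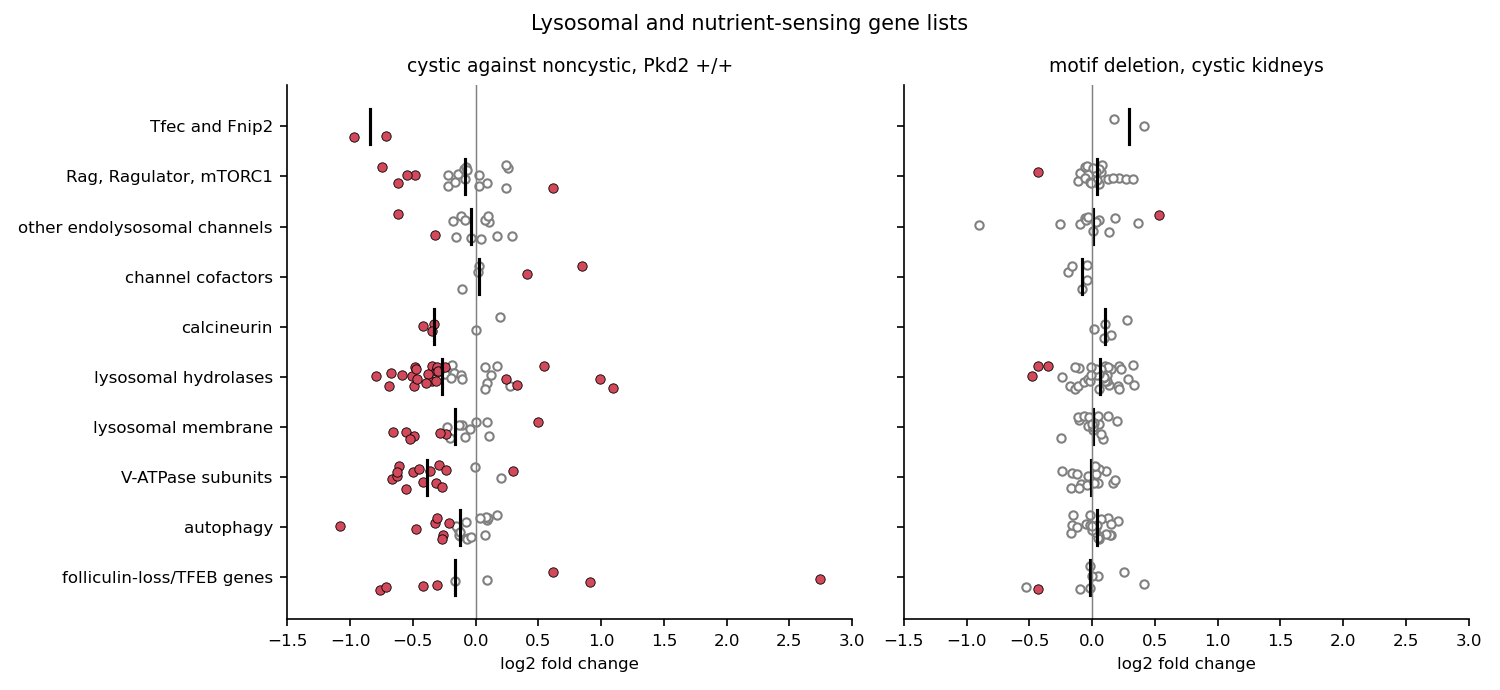
Log2 fold changes (horizontal axes) of the genes of each pathway list between cystic and noncystic Pkd2 +/+ kidneys (left) and with the motif deletion in cystic kidneys (right); each point is a gene, filled where its adjusted p was under 0.05, vertical bars are list medians, and vertical jitter has no meaning. With TMM scaling the V-ATPase list has its median at -0.39 on the left, and few points are filled on the right.

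The regulators beside the channels were mixed. Jpt2, an NAADP receptor gene, and Vac14, of the kinase complex that makes PI(3,5)P2, rose by 0.84 and 0.41, so 2 of 5 channel cofactor genes rose and 0 fell, with library totals as well. Of the calcineurin list 0 of 5 rose and 3 fell, Ppp3r1 at -0.33, Ppp3ca at -0.35 and Ppp3cc at -0.42, whereas with library totals 1 rose and 0 fell. Of 13 other endolysosomal channel genes 0 rose and 2 fell, Lrrc8a at -0.62 and Clcn3 at -0.32 (3 and 1 with library totals). Exons of Lrrc8a overlap those of other genes over 68.3% of their bases, so its count is uncertain. Ppp3r1 shares 14.3% of its exon bases with a gene on the same strand, so its count is uncertain to that extent.

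Of 9 genes known to rise on folliculin loss or TFEB and TFE3 activation, 3 rose and 4 fell in cystic Pkd2 +/+ kidneys (3 and 3 with library totals). Gdf15, a stress cytokine gene, rose by 2.74, Hmox1 by 0.91 and Rragd by 0.61. Ppargc1a fell by 0.76, Fnip2 by 0.71, Atp6v1c1 by 0.42 and Sqstm1, with 17.3% of exon bases shared with another gene, by 0.31. Rragc (-0.16) and Gpnmb (0.09) did not pass. In Pkd2 Δ17/Δ17 kidneys 2 rose and 3 fell. With the deletion in cystic kidneys, none rose and 1 fell, Rragd. The other lists gave 3 lower hydrolase genes there (Ctsc at -0.48, Ctsd at -0.44 and Ctsz, named after its value was seen) and 1 higher channel gene, Pkd2 itself.

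The genes whose pattern over the 12 mice was nearest to each member were found by root mean square distance of mean-centred log2CPM, among 12895 named genes with a mean log2CPM of at least 1. For Mcoln3, whose own spread was 1.41, the nearest were B4galnt2, a glycosyltransferase gene, at 0.145 and Slc38a4, a neutral amino acid transporter gene, at 0.188. Their log2 differences between cystic and noncystic Pkd2 +/+ kidneys were 2.87 and 2.96. For Tpcn1 the nearest were Sh2d3c (0.0445, against a spread of 0.233) and Gucd1, for Tpcn2 Ccdc125 (0.0829 against 0.245) and Cyb5r1, and for Mcoln1 Baiap2 (0.0572 against 0.187) and Tpra1. For Flcn they were Pacc1 (0.0646 against 0.232) and Sepsecs, for Fnip1 Acad8 (0.0639 against 0.266) and Fbxo7, and for Tfe3 Ptpn21 (0.0573 against 0.228) and Clasp1. Tfeb, Mitf and Mcoln2 varied less relative to their nearest genes: Stk19 lay at 0.0705 from Tfeb (spread 0.126), Repin1 at 0.0713 from Mitf (0.145) and Zc3h12c at 0.1501 from Mcoln2 (0.308). No member was among the 2 nearest of another.

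**Figure D5:**
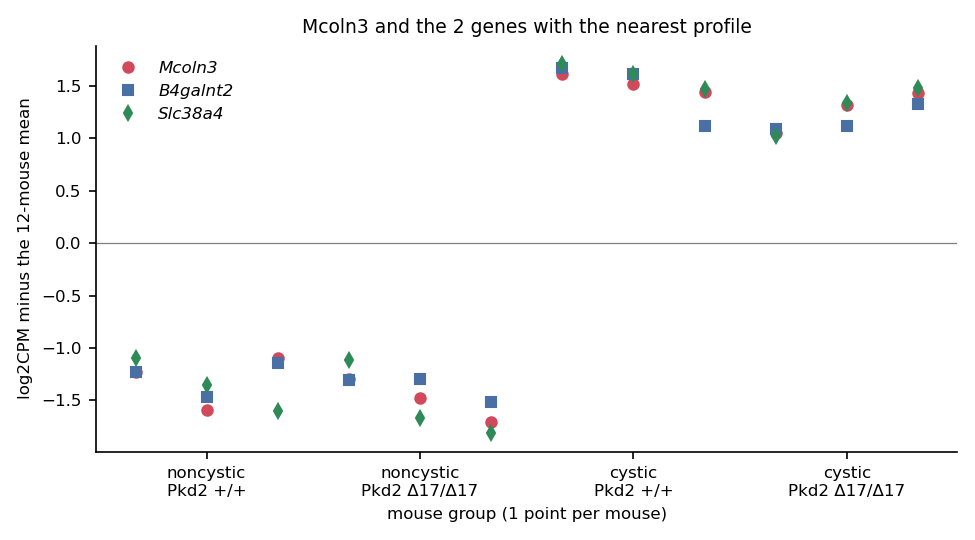
Log2CPM minus the mean over the 12 mice (vertical axis) of Mcoln3, B4galnt2 and Slc38a4 in each mouse, grouped by genotype; each point is 1 mouse. All 3 genes lie above their mean in the 6 cystic kidneys and below it in the 6 noncystic ones.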

How the data were processed

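Whole kidneys of 12 mice, 3 a group, were profiled by RNA-seq. The authors deposited raw whole-number counts per gene, without normalization, made from total RNA (Qiagen miRNeasy) by trimming (Trim Galore 0.6.3 in the submitters' processing notes), then alignment to GRCm38 and gene counting with STAR 2.5.3a. The strand setting of the counting was not given in the sources used here. The 343 genes without a name held 0.0225% of reads. Members and lists were chosen with earlier results of these data known.

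From these counts, edgeR 4.0.16 (R 4.3.3) fitted one mean per group over 12 mice (8 residual degrees of freedom) with TMM factors, on 24642 genes whose mean log2CPM was -3 or more, with a quasi-likelihood test and Benjamini-Hochberg adjusted p (threshold 0.05). Log2CPM used a prior count of 2. CPM and RPKM were computed here, with lengths, coordinates and exons from GENCODE M21, which held 54495 of the 54532 identifiers. Promoter and miR-17 sequences are RefSeq's. Totals of 18800307 to 24453033 counts limit precision mainly for Mcoln2. The fits were tested on simulated counts.

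Named were all members, Pkd1 and Pkd2, up to 2 rising and 2 falling genes a list by p between the Pkd2 +/+ and between the cystic groups, all genes of lists of up to 5, and the 2 nearest profiles of each member. Alternatives were limma-trend 3.58.1 on library totals (the study's method, prior count 3), DESeq2 1.42.0, library totals or DESeq2 size factors in edgeR, no cutoff, at least 10 reads in every mouse, only the compared groups, Xist as a covariate and leaving out each mouse. The union of exons as length and leaving out mice 27 and 30 were chosen after seeing the data.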

Additional observations from a re-analysis of the deposited data

How the results depend on the processing

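The number of members called ranged from 5 to 7 between cystic and noncystic Pkd2 +/+ kidneys and from 4 to 6 with Pkd2 Δ17/Δ17 over 16 fits each, the main fit included, and was 0 in the other comparisons throughout. Leaving out 1 mouse gave 5 to 6 and 4 to 5. Mcoln3, Fnip1, and in Pkd2 +/+ kidneys Tfe3 and Tpcn1, kept their calls under all alternatives. Some log2 differences near 0 changed sign, and the cause was not tested. With library totals or limma-trend Mitf became 0.0146 and 0.0153 in Pkd2 +/+ kidneys and Tfeb 0.11 and 0.11 in Pkd2 Δ17/Δ17 kidneys. In the latter, Mitf became -0.00755 with DESeq2, -0.00755 with its size factors, -0.00256 with at least 10 reads in every mouse and -0.00579 without mice 27 and 30, where Mcoln2 became -0.0225. With Xist as a covariate Tfeb became 0.00717 for the deletion in noncystic kidneys. Leaving out 1 mouse moved the Pkd2 Δ17/Δ17 differences of Mcoln2 from -0.0841 to 0.17, of Tfeb from -0.13 to 0.0270 and of Mitf from -0.0319 to 0.0318. It moved the deletion in cystic kidneys for Tfe3 from -0.0762 to 0.0229, and in noncystic kidneys for Tfeb from -0.10 to 0.0247, Tfe3 from -0.0559 to 0.11, Flcn from -0.0160 to 0.13 and Fnip1 from -0.0710 to 0.0102. Interactions ranged from -0.16 to 0.0832 for Mcoln3, from -0.00173 to 0.19 for Tpcn1, from -0.22 to 0.0731 for Tpcn2 and from -0.14 to 0.0243 for Tfe3. Over all genes, the 549 calls for the deletion in cystic kidneys were 1128 with DESeq2, 1639 with no cutoff, 167 with only the compared groups, 322 without mice 27 and 30 and 118 to 861 without 1 mouse. The 3 interaction calls were 9 with limma-trend, 134 with DESeq2, 8 with library totals, 566 with no cutoff, 12 with at least 10 reads, 13 with Xist, 20 without mice 27 and 30 and 0 to 61 without 1 mouse. The single call for the deletion in noncystic kidneys was 3 with DESeq2, 124 with no cutoff, 2 with only the compared groups and 0 to 2 without 1 mouse. No paired analysis was possible because the mouse numbers are all different between groups.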
